A study of Bos taurus with 6 samples.

Results

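The 10 genes described here encode vascular endothelial growth factor (VEGF) ligands, 2 of their receptors and 4 other secreted proteins that many cells make in larger amounts when oxygen is scarce. They were chosen by name, as VEGFA, VEGFB, VEGFC, PGF, KDR, FLT1, ADM, STC1, STC2 and ANGPTL4, out of 19163 genes in the deposited count table, and all 10 were found there and in the authors' second table. The cells were bovine embryonic stem cells of the line F7, derived from an in vitro fertilized Holstein Friesian embryo and grown with fibroblast growth factor and the WNT inhibitor IWR1. MC-F7 cells grew on mouse embryonic fibroblasts (MEFs) from C57 mice whose division had been stopped with mitomycin C, and MT-F7 cells grew on MEFs killed and fixed with methanol. The series description gives 15 passages for both, and each group had 3 RNA-seq libraries. Medium was changed every day for MC-F7 and every other day for MT-F7, so the feeder and the feeding interval cannot be told apart. F7 is 1 line, the dissociated cells of both groups were left on gelatin for 25 minutes and the floating cells taken, and the study describes its replicates in general as technical without naming the RNA-seq libraries, so p-values measure only the spread between these libraries, which may be technical.

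VEGF ligands act through receptor tyrosine kinases. VEGFA binds FLT1 (VEGFR1) and KDR (VEGFR2), VEGFB and PGF bind FLT1, and VEGFC binds FLT4 and, after processing, KDR. KDR carries most of the growth signal in endothelium, while FLT1 binds VEGFA tightly, signals weakly and is also made as a soluble decoy. Adrenomedullin, the product of ADM, is a vasodilator peptide. The stanniocalcins STC1 and STC2 are secreted glycoproteins, and ANGPTL4 blocks lipoprotein lipase. Hypoxia-inducible factors (HIF) raise VEGFA, ADM, STC2 and ANGPTL4 in many cell types, while STC2 and VEGFA also respond to the stress factor ATF4 and ANGPTL4 to the lipid-sensing PPAR receptors.

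Total counts ran from 21958386 to 24933430 per library, and genes of the mitochondrial genome took 16.3% to 28.3% of them, and in each group replicate 3 had the highest share. Levels are given as counts per 1000000 (CPM) after TMM normalization, on which 3 counts, the smallest amount taken as detected, correspond to 0.116 to 0.14 CPM. This limit covers counting error only. All 10 genes had at least 25 counts in every library and passed the filter on low counts. The label of the cells was checked with 10 markers of pluripotent cells, of which 7 were matched, and SOX2 was not analysed here. POU5F1 went from 1196 ± 329.5 CPM (SD, n = 3) on living feeders to 522 ± 35.6 on fixed ones and NANOG from 43.5 ± 9.03 to 10.7 ± 1.23. With DPPA4, ZFP42, TDGF1 and LIN28A, 6 of the 7 passed as lower, although LIN28A passed in only 3 of the 6 fits that left out 1 library. That pluripotency markers fell together with the genes below is a measured fact whose part in their results was not tested.

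STC2 and ADM showed the greatest differences of the 10 genes, and both were about 15 times lower in MT-F7. FLT1, VEGFA and ANGPTL4 were lower too, by smaller factors, while VEGFC and KDR were about 2 times higher. VEGFB, PGF and STC1 did not pass the test. In edgeR's quasi-likelihood test with Benjamini-Hochberg adjustment over the 13001 tested genes, 5 of the 10 genes passed as lower in MT-F7 and 2 as higher (threshold of 0.05 on the adjusted p), where 11.3% of all tested genes passed as lower, 11.9% as higher and 23.2% in either direction. Values did not overlap between the groups in 8 of the 10 genes, 6 of them lower and 2 higher in MT-F7, against 40.0% of all tested genes, 20.1% lower and 19.9% higher. With an absolute log2 fold change over 1.5 and an unadjusted p under 0.05, 3 of the 10 genes were called, FLT1, ADM and STC2. The share of all tested genes so called was 6.58%. The study gives these limits with its heatmap, while its methods name a lower limit on the fold change. KDR and VEGFC are among the genes it lists as different, and they did not reach 1.5 here. The median log2 fold change of the 10 genes was -0.48, and that of all tested genes was -0.0026.

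**Figure D1:**
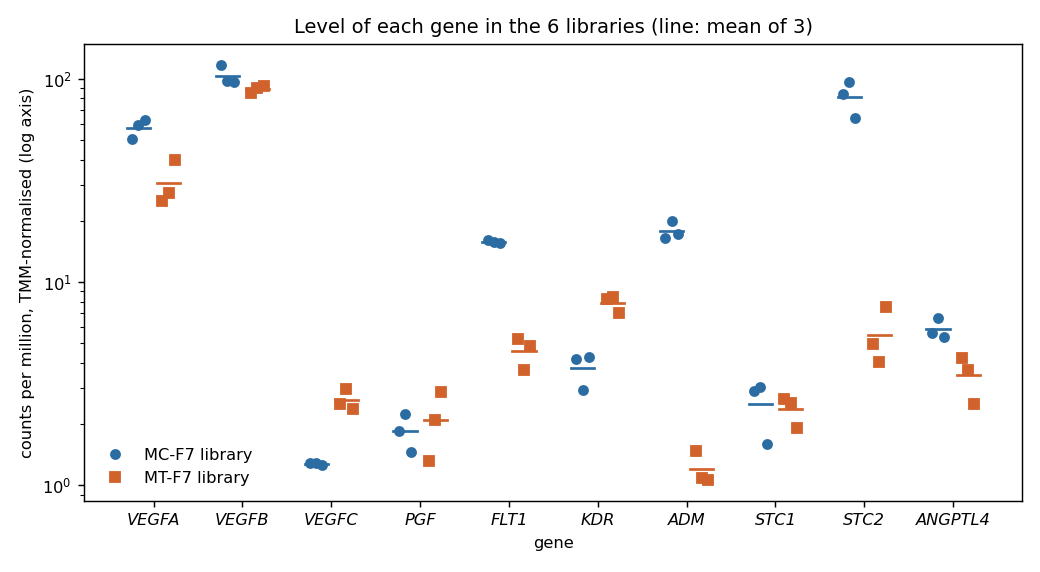
Level of each of the 10 genes in every library, in TMM-normalised CPM on a log axis. Circles are MC-F7 libraries, squares are MT-F7 libraries and lines are means of 3. ADM and STC2 stand far lower in MT-F7, FLT1, VEGFA and ANGPTL4 are lower without overlap, and KDR and VEGFC are higher without overlap. VEGFB is also lower without overlap, by a small margin, and did not pass the test.

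VEGFA (Entrez gene 281572) is the ligand that drives most vessel growth. It measured 50.6, 58.9 and 62.6 CPM in the MC-F7 libraries and 25.1, 27.3 and 39.7 CPM in the MT-F7 libraries. All MT-F7 values lay below all MC-F7 values, and MT-F7 replicate 3 was the highest of its group. The level fell to 0.535 of that in MC-F7, or -0.90 ± 0.189 on the log2 scale (standard error here and for the genes that follow, adjusted p = 0.00424 by edgeR), and it passed in each of the 6 fits that left out 1 library.

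VEGFB (282121), which is known more for lipid handling and survival than for vessel sprouting, was the most abundant of the 10 genes per unit of gene length. Its libraries had 117, 96.8 and 95.8 CPM in MC-F7 and 85.1, 90.2 and 92.0 CPM in MT-F7. The 2 groups did not overlap, but the highest MT-F7 value was within 4 CPM of the lowest MC-F7 value. The log2 fold change was -0.21 ± 0.146 (adjusted p = 0.326 by edgeR).

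VEGFC (282122), the ligand of lymphatic vessels, moved the other way to VEGFA. Its MC-F7 libraries held 29, 31 and 27 counts, or 1.28, 1.29 and 1.26 CPM, and its MT-F7 libraries 63, 77 and 56 counts, or 2.51, 2.97 and 2.38 CPM. Every MT-F7 library was above every MC-F7 library. The fitted level was 2.05 times higher, or 1.03 ± 0.302 on the log2 scale (adjusted p = 0.0253 by edgeR), but the test passed in only 2 of the 6 fits that left out 1 library. Its adjusted p was 0.0837 without MC-F7 replicate 2, 0.0516 without MC-F7 replicate 3, 0.0704 without MT-F7 replicate 1 and 0.102 without MT-F7 replicate 2, while its log2 fold change stayed between 0.937 and 1.09.

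PGF (280894), placental growth factor, was counted 42, 54 and 31 times in the MC-F7 libraries and 33, 54 and 68 times in the MT-F7 libraries. The groups overlapped across most of their ranges, from 1.45 to 2.24 CPM and from 1.32 to 2.89 CPM. Its log2 fold change of 0.17 had a standard error of 0.356, so changes smaller than the spread of its low counts were not detectable, and the adjusted p by edgeR was 0.767.

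The receptors moved in opposite directions. FLT1 (503620) had 16.1, 15.6 and 15.5 CPM in MC-F7 and 5.22, 3.71 and 4.84 CPM in MT-F7, so that the MC-F7 libraries were nearly level with each other and all far above the MT-F7 libraries. Its level was 3.44 times lower in MT-F7, or -1.78 ± 0.193 on the log2 scale (adjusted p = 3.55e-05 by edgeR). KDR (407170) had 4.16, 2.94 and 4.26 CPM in MC-F7 and 8.21, 8.42 and 7.05 CPM in MT-F7, again without overlap. It was 2.09 times higher in MT-F7, or 1.06 ± 0.225 on the log2 scale (adjusted p = 0.00462 by edgeR). Both passed in all 6 fits that left out 1 library. The study drew a HIF-1 pathway list that holds FLT1, and a Ras signaling list that holds KDR and VEGFC, from the genes that differed between these same libraries, so those lists are no independent evidence of direction, and it also named KDR among mesoderm markers. Counts per gene do not separate the soluble from the membrane form of FLT1.

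**Figure D2:**
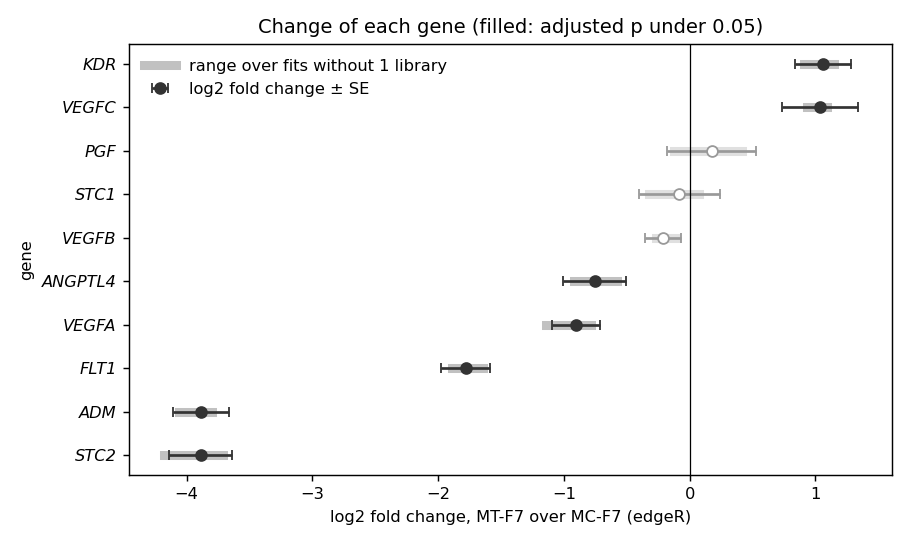
Log2 fold change of each of the 10 genes between MT-F7 and MC-F7. Points and bars are the edgeR estimate and its standard error with all 6 libraries, filled where the adjusted p was under 0.05, and the pale bands run from the lowest to the highest estimate when 1 library was left out. ADM and STC2 sit near -3.9, KDR and VEGFC near 1, and the bands of PGF and STC1 cross 0.

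ADM (280713) had 16.5, 19.98 and 17.2 CPM in MC-F7 and 1.47, 1.08 and 1.06 CPM in MT-F7. The lowest MC-F7 library still had more than 10 times the CPM of the highest MT-F7 library. The gene was 14.8 times lower in MT-F7, or -3.89 ± 0.225 on the log2 scale (adjusted p = 6.2e-07 by edgeR). MT-F7 libraries kept 37, 28 and 25 counts, which is above the limit of detection.

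STC2 (540573), which is also known to inhibit the protease PAPPA, had 84.0, 96.2 and 64.0 CPM in MC-F7 and 4.94, 4.06 and 7.51 CPM in MT-F7. MC-F7 replicate 3 was the lowest of its group and MT-F7 replicate 3 the highest of its group, yet the groups stayed far apart. Its level was 14.8 times lower in MT-F7, or -3.89 ± 0.247 on the log2 scale (adjusted p = 7.65e-07 by edgeR). Among all 13001 tested genes ordered from the lowest log2 fold change, STC2 was number 21 and ADM number 22.

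STC1 (338078), the close relative of STC2, had 2.92, 3.03 and 1.59 CPM in MC-F7 and 2.67, 2.55 and 1.91 CPM in MT-F7, and replicate 3 was the lowest library of both groups. The groups overlapped, and the log2 fold change was -0.082 ± 0.321 (adjusted p = 0.882 by edgeR). Its sign turned in 7 of 19 alternative settings, so no direction is given for it. STC2 made up 97.7%, 97.9% and 98.3% of the summed per-length values of the stanniocalcin pair in the MC-F7 libraries and 73.3%, 70.2% and 85.3% in the MT-F7 libraries, and it remained the larger of the 2 in every library.

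ANGPTL4 (509963) had 5.62, 6.67 and 5.33 CPM in MC-F7 and 4.22, 3.71 and 2.51 CPM in MT-F7. The groups did not overlap, and MT-F7 replicate 3 was the lowest library. The level fell to 0.593 of that in MC-F7, or -0.75 ± 0.252 on the log2 scale (adjusted p = 0.0468 by edgeR), at the edge of the threshold. It passed in 1 of the 6 fits that left out 1 library, with adjusted p from 0.0485 to 0.178, and missed in those without MC-F7 replicate 1 or 2 or without MT-F7 replicate 1, 2 or 3.

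To compare the genes with one another, their levels were taken from the authors' second table, which they call TPM. In it counts are divided by gene length but not scaled for library size. Levels from it are therefore read only within a group or as shares within a library. The limma alternatives named below did compare the groups on these values, and among them only the rescaled one corrected for library size. In MC-F7 the order of mean deposited TPM was VEGFB (18.6 ± 2.36, SD, n = 3), STC2 (10.2 ± 2.62), VEGFA (4.12 ± 0.449), ADM (1.66 ± 0.263), ANGPTL4 (0.637 ± 0.115), FLT1 (0.459 ± 0.0299), PGF (0.243 ± 0.0659), STC1 (0.214 ± 0.0772), VEGFC (0.129 ± 0.00888) and KDR (0.0873 ± 0.0128). The library ranges of PGF and STC1 overlapped, as did those of STC1 and VEGFC, and no other neighbours in this order did. In MT-F7 the order was VEGFB (17.5 ± 0.852), VEGFA (2.40 ± 0.502), STC2 (0.744 ± 0.205), ANGPTL4 (0.414 ± 0.118), PGF (0.296 ± 0.101), VEGFC (0.290 ± 0.0475), STC1 (0.220 ± 0.0461), KDR (0.201 ± 0.0279), FLT1 (0.146 ± 0.0225) and ADM (0.122 ± 0.0255). Here the ranges from ANGPTL4 to KDR overlapped between each pair of neighbours, as did those of FLT1 and ADM. ADM thus went from the fourth place to the last, and KDR from the last to the place above FLT1. VEGFB alone held 51.1% of the summed mean per-length level of the 10 genes on living feeders and 78.4% on fixed ones.

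The make-up of the ligands and of the receptors within a library does not depend on library size. FLT1 made up 83.0%, 86.9% and 82.1% of the summed per-length values of FLT1 and KDR in the MC-F7 libraries and 44.4%, 35.6% and 46.3% in the MT-F7 libraries. FLT1 was therefore the larger of the pair in every MC-F7 library and the smaller in every MT-F7 library, with 4.57 to 6.66 times the deposited TPM of KDR in MC-F7 and 0.552 to 0.861 times in MT-F7. The mean share dropped by 41.9 percentage points in MT-F7, and an exact two-sided permutation test gave p = 0.1, the smallest value that 3 libraries against 3 allow.

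Among the 4 ligands VEGFB took 84.0%, 78.9% and 78.2% of the summed per-length values in the MC-F7 libraries and 87.3%, 86.5% and 82.7% in the MT-F7 libraries, with overlapping groups. VEGFA took 14.5%, 19.2% and 20.4% in the MC-F7 libraries and 10.3%, 10.5% and 14.2% in the MT-F7 libraries, and its groups came close without overlapping. The share of VEGFC was 0.516% to 0.587% in MC-F7 and 1.20% to 1.60% in MT-F7, and that of PGF was 0.855% to 1.32% and 0.976% to 1.88%. The exact permutation test, two-sided, gave p = 0.1 for VEGFA and VEGFC and p = 0.2 for VEGFB and PGF.

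**Figure D3:**
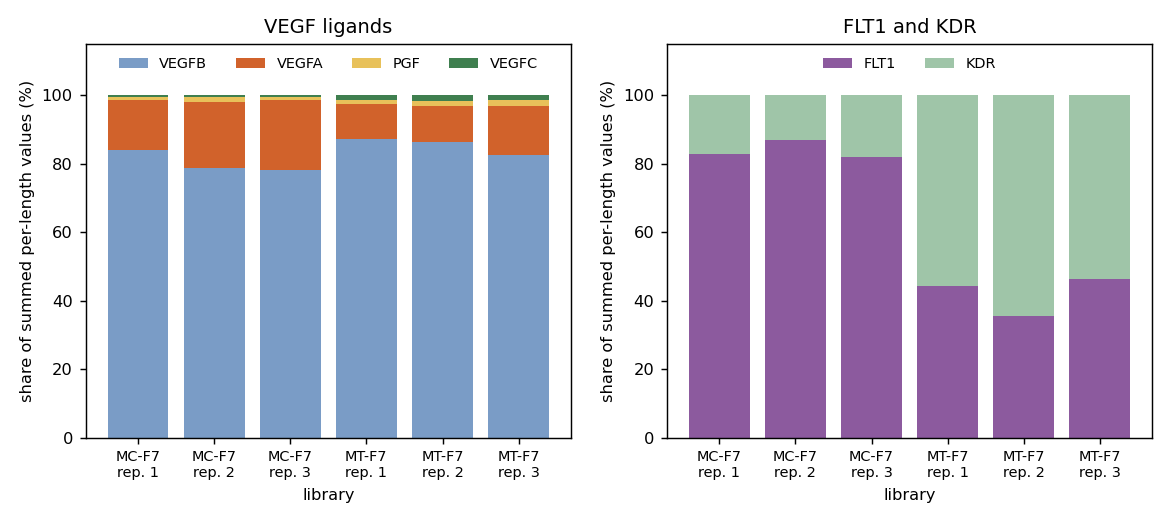
Share of each VEGF ligand in the sum of the 4 ligands (left) and of FLT1 and KDR in their sum (right), in percent of summed per-length values, 1 bar per library. VEGFB is the greatest part of the ligands in all 6 libraries, while the FLT1 part of the receptor bars is 82.1% to 86.9% in MC-F7 and 35.6% to 46.3% in MT-F7.

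Other genes of VEGF signaling gave no common direction. Of 11 such genes 10 were matched and 7 tested, of which 2 were higher and 2 lower in MT-F7, with a median log2 fold change of 0.24. NRP1, a co-receptor that helps VEGFA bind KDR, fell from 15.0 ± 4.50 to 5.28 ± 1.43 CPM (SD, n = 3), a log2 fold change of -1.51 (adjusted p = 0.00123 by edgeR). SH2D2A, an adaptor that binds KDR, fell from 2.20 ± 0.328 to 0.466 ± 0.120 CPM. VASH1, an inhibitor of vessel growth that VEGF induces in endothelium, rose from 7.46 ± 0.559 to 16.8 ± 2.19 CPM, a log2 fold change of 1.17 (adjusted p = 0.000539). SHB, another adaptor of KDR, rose by 0.61 on the log2 scale (adjusted p = 0.00814). FLT4, the main receptor of VEGFC, had 0.398 to 0.842 CPM in MC-F7 and 0.85 to 1.10 CPM in MT-F7 and did not pass (adjusted p = 0.205). The ligand VEGFD had at most 1 count in any library. ESM1, a VEGF-induced proteoglycan that was below the filter, was counted 0, 0 and 1 times on living feeders and 3, 20 and 23 times on fixed ones. Its mean CPM in MT-F7 was at least 4.44 times the floor of 3 counts per library set for MC-F7. MT-F7 replicate 1, with 3 counts, was itself at that floor, so the factor rests on MT-F7 replicates 2 and 3.

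Genes of the adrenomedullin system other than ADM moved in both directions in MT-F7. Of 10 partner genes 9 were tested, and 4 were lower and 2 higher. Among all tested genes 11.3% passed as lower and 11.9% as higher. ADM2, a related peptide, fell from 6.49 ± 1.65 to 0.736 ± 0.0999 CPM (SD, n = 3), a log2 fold change of -3.13 (adjusted p = 1.38e-05 by edgeR). The accessory proteins that give the receptor its affinity for adrenomedullin fell too, RAMP2 from 22.6 ± 4.68 to 9.999 ± 0.578 CPM (adjusted p = 0.000713) and RAMP3 from 1.91 ± 0.683 to 0.459 ± 0.104 CPM (adjusted p = 0.00473). MME, a peptidase that degrades small peptides, adrenomedullin among them, fell from 115.3 ± 4.202 to 21.5 ± 2.74 CPM. CALCRL, the receptor that RAMP proteins accompany, went the other way, counted 2, 0 and 0 times in the MC-F7 libraries and 28, 27 and 17 times in the MT-F7 libraries, at least 6.84-fold higher against the floor of 3 counts per library (adjusted p = 0.0011). PAM, which amidates the peptide, rose by 0.50 on the log2 scale (adjusted p = 0.0367), a call kept in 1 of the 6 fits with 1 library left out.

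Among 17 relatives and partners of the stanniocalcins and ANGPTL4, 10 were tested, 3 were higher and 2 lower. Of the proteases that stanniocalcins inhibit, PAPPA had 0 to 6 counts and PAPPA2 was at 0 in all libraries, where 0 counts allow up to 0.14 CPM. Of the binding proteins that PAPPA cuts, IGFBP4 rose from 60.3 ± 8.62 to 177 ± 14.1 CPM (SD, n = 3) and IGFBP5 fell from 40.6 ± 4.205 to 16.7 ± 0.85 CPM, or 1.55 and -1.28 on the log2 scale (adjusted p = 2.1e-05 for the former and 9.01e-05 for the latter by edgeR). LPL, the lipase that ANGPTL4 blocks, had 11.04 to 16.1 CPM in MC-F7 and 9.47 to 11.5 in MT-F7 (adjusted p = 0.145), and LIPG, endothelial lipase, rose by 0.66 on the log2 scale (adjusted p = 0.0105). ANGPTL1 rose from 0.0866 ± 0.0885 to 0.684 ± 0.180 CPM and ANGPTL6 fell from 3.89 ± 1.06 to 1.49 ± 0.83 CPM, and ANGPTL6 passed in 3 of the 6 fits with 1 library left out.

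Of 15 other secreted proteins that low oxygen raises in other cells, 10 were tested, of which 4 were higher and 3 lower in MT-F7, with a median log2 fold change of 0.23. EDN1, the vasoconstrictor endothelin, rose from 4.75 ± 0.713 to 21.1 ± 3.31 CPM (SD, n = 3, adjusted p = 9.26e-06 by edgeR) and the collagen crosslinker LOXL2 from 39.1 ± 3.13 to 75.6 ± 1.73 CPM. TGFB3 rose by 1.25 on the log2 scale (adjusted p = 0.0416) but passed in 1 of the 6 fits with 1 library left out. MIF fell from 3468 ± 685.8 to 1457 ± 232.5 CPM, IGFBP3 from 1586 ± 110.8 to 742 ± 69.3 CPM and the chemokine CXCL12 from 21.3 ± 2.84 to 9.10 ± 3.27 CPM, with log2 fold changes from -1.25 to -1.10.

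Of 29 HIF-responsive genes whose products stay in the cell or its membrane, 27 were tested, and 19 were lower and 1, CITED2, was higher, with a median log2 fold change of -1.23. BNIP3, which acts in mitophagy, fell from 3.78 ± 1.17 to 0.202 ± 0.0819 CPM (SD, n = 3, adjusted p = 3.07e-05 by edgeR), and LDHA, the lactate dehydrogenase subunit, from 533.8 ± 152.2 to 32.3 ± 7.78 CPM, both by about as much on the log2 scale (-4.20 and -4.05) as ADM and STC2. The glucose transporter SLC2A3 fell from 1350 ± 448.7 to 140 ± 5.19 CPM, the kinases HK2 by 2.38 and PGK1 by 2.06 on the log2 scale, and the carbonic anhydrase CA9 from 17.4 ± 0.225 to 4.24 ± 0.339 CPM. CITED2 passed in 2 of the 6 fits with 1 library left out. Several of these, such as LDHA, PGK1, ENO1, GAPDH, ALDOA and EGLN1, are on the list that the study chose from these same libraries, so that count is no independent evidence of a direction.

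**Figure D4:**
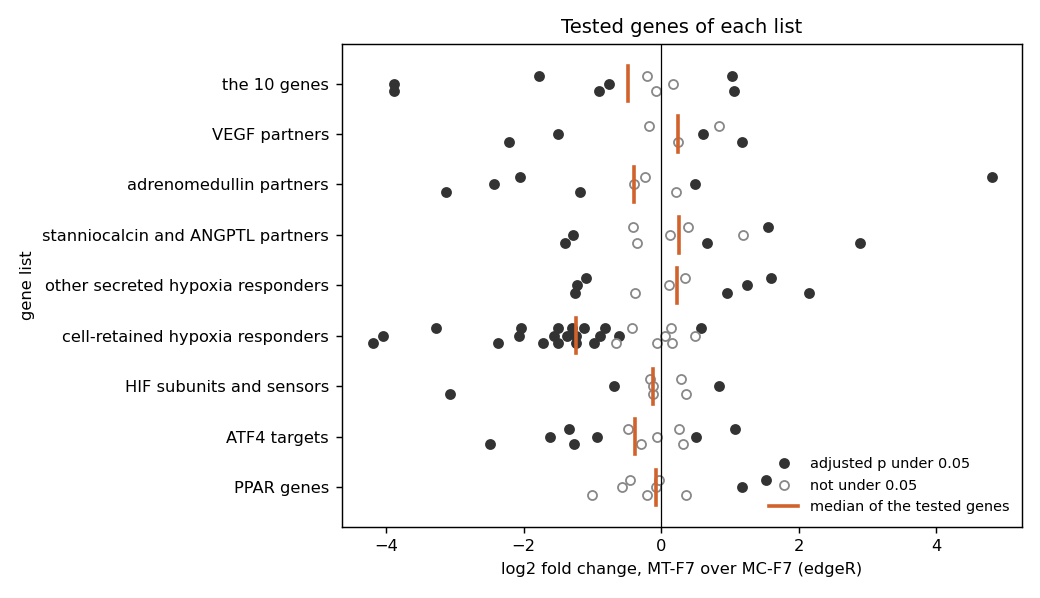
Log2 fold change between MT-F7 and MC-F7 of every tested gene in the 10-gene set and in 8 companion lists. Filled circles had an adjusted p under 0.05 and vertical bars are medians of the tested genes. The cell-retained hypoxia responders lie mostly left of 0 with a median of -1.23, while the other secreted hypoxia responders lie on both sides with a median of 0.23.

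The transcripts of the factors that regulate these genes were read beside them. HIF1A had 126 to 170 CPM in MC-F7 and 121 to 147 CPM in MT-F7 (adjusted p = 0.652 by edgeR). The study describes both HIF1A and HIF3A as downregulated in MT-F7, while HIF1A did not pass here. EPAS1, which encodes HIF-2α, fell from 1.96 ± 0.613 to 0.228 ± 0.0138 CPM (SD, n = 3, adjusted p = 0.000409), HIF3A fell by 0.68 on the log2 scale (adjusted p = 0.0418, passing in 1 of the 6 fits with 1 library left out) and ARNT2 rose by 0.84 (adjusted p = 0.00381). Of 14 genes listed as ATF4 targets, 12 were tested, and 5 were lower and 2 higher. The hormone FGF21 fell by 2.49, TRIB3 by 1.61 and the amino acid transporter SLC7A5 by 0.93 on the log2 scale. ASNS fell from 426.5 ± 64.6 to 168 ± 36.8 CPM and CHAC1 from 7.72 ± 1.05 to 3.21 ± 0.609 CPM. PSAT1 rose from 7.13 ± 2.46 to 15.1 ± 4.18 CPM, and DDIT3 had a log2 fold change of -0.065 (adjusted p = 0.84). TRIB3 and PSAT1 each passed in 4 of the 6 fits with 1 library left out. Of 13 PPAR genes, 9 were tested, 2 were higher, the other 7 did not pass, and of the receptors PPARD and PPARG were among these while PPARA was below the filter. CPT1A, which admits fatty acids to mitochondria, rose by 1.53 on the log2 scale (adjusted p = 0.0105) and HADHA, an enzyme of fatty acid oxidation, by 1.18.

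Markers of other cell types were read beside the receptors and the secreted factors. Of 11 endothelial markers 8 were tested, 2 were higher and 3 lower in MT-F7. The defining markers PECAM1 and CDH5 had 0 to 3 and 0 to 6 counts per library, while TEK rose from 2.53 ± 0.356 to 12.7 ± 0.716 CPM (SD, n = 3, adjusted p = 7.45e-06 by edgeR) and EMCN by 2.46 on the log2 scale. VWF, ROBO4 and EGFL7 fell by 1.30, 1.43 and 0.67 on the log2 scale, and passed in 3, 3 and 2 of the 6 fits with 1 library left out. The summed endothelial list ran from 27.4 to 31.1 CPM in MC-F7 and from 28.4 to 35.5 CPM in MT-F7. Of 8 early mesoderm markers 7 were matched and 2 tested. TBXT had at most 1 count in any library, and EOMES fell from 5.49 ± 0.211 to 3.16 ± 0.244 CPM (adjusted p = 0.0211), passing in 3 of the 6 fits with 1 library left out. TBX6, the other tested marker, had 2.61 ± 0.274 CPM in MC-F7 and 4.22 ± 0.675 CPM in MT-F7 without overlap, a log2 fold change of 0.69 that did not pass (adjusted p = 0.0695). Of 9 trophectoderm markers 3 were tested, CDX2 and HAND1 were at 0 in all libraries, and KRT7 alone carried most of the list's sum, which was 52.3 to 78.7 CPM in MC-F7 and 7.30 to 8.73 CPM in MT-F7. All 15 fibroblast markers, read because the feeders were fibroblasts, were tested, and COL3A1, POSTN, FBN1 and PDGFRB were higher and TWIST2 lower in MT-F7. Their sum was 235 to 315 CPM in MC-F7 and 364 to 413 CPM in MT-F7, most of it from COL1A1, which had 205 ± 31.4 and 268 ± 15.6 CPM and did not pass (adjusted p = 0.0942). TWIST2 fell by 2.15 on the log2 scale, and PRRX1 had a log2 fold change of -1.61 (adjusted p = 0.0537). PDGFRB passed in 3 of the 6 fits with 1 library left out. The part of feeder cells and of mouse reads aligned to bovine genes in any of these results was not tested, and alignment rates were not analysed here. In bulk samples fewer cells of a type and less RNA per cell cannot be told apart.

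For each of the 10 genes the tested genes with the most similar profile over the 6 libraries were found by the root mean square distance between profiles of log2(CPM + 0.5), each centred on its own mean. This is a description with no test, and with so many candidates some close profiles are found for any gene. Nearest to ADM were LCK (distance 0.152) and PTGES (0.207), and nearest to STC2 were GDF3 (0.259) and ZNF296 (0.262), all 4 of which had log2 fold changes between -4.02 and -3.38. FLT1 was nearest to SLC39A4 (0.098) and ATP2A3 (0.113), and VEGFA to KBTBD11 (0.0857). KDR was nearest to FAM200C (0.111) and SLC22A5 (0.116), VEGFC to NCOA6 (0.0458) and PHYHIPL (0.0557), and ANGPTL4 to MTAP (0.0621) and AK3 (0.0722). PHYHIPL, at 0.116 CPM in MC-F7 and 0.587 CPM in MT-F7, had a log2 fold change of 2.28 against 1.03 for VEGFC. That of SLC22A5 was 1.51 against 1.06 for KDR. The added 0.5 CPM draws genes of low level closer, so a small distance does not mean an equal fold change. For the genes that did not pass, the nearest were THOC6 (0.0248) and CMTM7 (0.0257) to VEGFB, THEG (0.0956) and SLC2A12 (0.10) to PGF, and MIS18A (0.0213) and NDUFC2 (0.0486) to STC1.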

How the data were processed

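RNA-seq of 6 libraries was used, 3 of MC-F7 and 3 of MT-F7, grouped by their titles. Per the submitters' processing notes and the study's methods, 150 bp paired-end reads were aligned with HISAT2 2.0.5 to a Bos taurus genome from Ensembl and assigned to genes with featureCounts 1.5.0-p3, and the authors deposited the raw counts per Entrez gene. The genome build is not given in the sources used here, so no coordinates are printed. In the second deposited table, which the authors call TPM, each value is the count times a factor of the gene that did not vary between libraries (tolerance 0.1%) in 9695 of 9708 genes that reached 50 counts throughout, so no scaling by library size was applied. Symbols were taken from the RefSeq table of ARS-UCD2.0 for 19074 of 19163 genes, with TDGF1 matched by its synonym CRIPTO. In that table MIR2300A overlaps FLT1 and MIR6518 overlaps ADM, and without strand their reads cannot be told apart.

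In edgeR 4.0.16 under R 4.3.3, low genes were removed with filterByExpr (10 counts, 15 in total), TMM factors ran from 0.971 to 1.04, and the groups were compared with the two-sided quasi-likelihood test with group as the single term and Benjamini-Hochberg adjustment, with 0.05 as the threshold. Standard errors are the log2 fold change over the root of F. Other tools were DESeq2 1.42.0, limma 3.58.1, Python 3.11.15, numpy 2.4.6, pandas 2.3.3, scipy 1.17.1 and matplotlib 3.10.9. The members, lists and alternatives were chosen with earlier results of these data known. The text names all 10 members, in each companion list up to 6 genes past the threshold by absolute log2 fold change and defining partners below the filter, and the 2 nearest profiles of each member. FLT4, HIF1A, LPL, DDIT3, CITED2, TBX6, COL1A1, PRRX1 and the PPAR receptors were named besides, after their values were seen. Some genes that the rule selects are not reported here. Alternatives were DESeq2, edgeR's likelihood ratio test, RLE factors or none, 2 other filters, removal of mitochondrial genes, a block for replicate number, fits without 1 library and limma on the deposited TPM (pseudocount 1 or 0.1, with and without a minimum mean of 0.1, or rescaled to 1000000). The limits that the study gives with its heatmap were also applied (absolute log2 fold change over 1.5, unadjusted p under 0.05).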

Additional observations from a re-analysis of the deposited data

How the results depend on the processing

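VEGFA, KDR, FLT1, ADM and STC2 kept their direction and passed in all 19 alternative fits, including those without 1 library and the one, chosen after seeing the data, without both replicate 3 libraries. VEGFC kept its direction and missed the threshold in 4 fits, each without 1 library. ANGPTL4 kept its direction and missed it in 12, with log2 fold changes from -0.923 to -0.213. The smallest difference, -0.213, came from limma on log2(deposited TPM + 1), where the added 1 exceeds the level of ANGPTL4 and shrinks the difference. In the fits without 1 library ANGPTL4 ran from -0.923 to -0.575. VEGFB did not pass in any of the 19. Over the fits without 1 library PGF ran from -0.128 to 0.414 and STC1 from -0.326 to 0.074. PGF turned to -0.128 without MT-F7 replicate 3 and to -0.251 without replicate 3 of both groups. STC1 turned to 0.009 with limma on log2(deposited TPM + 1), with or without the filter, to 0.05 with a pseudocount of 0.1, to 0.012 after rescaling, and to 0.038, 0.074 and 0.045 without MC-F7 replicate 1, MC-F7 replicate 2 and MT-F7 replicate 3. The cause was not tested.

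Between 1 and 2 of the 10 genes were called higher, and 4 to 5 lower, when 1 library was left out. With an absolute log2 fold change over 1.5 and an unadjusted p under 0.05, 0 were called higher and 3 lower, and 856 of all genes passed in place of 3016. At an adjusted p under 0.05 all genes gave 1914 to 3093 calls with 1 library left out, the fewest without MC-F7 replicate 2, and 4242 without both replicate 3 libraries. Called genes among the stanniocalcin and ANGPTL partners were 3 to 6 in those fits, with 3 without MC-F7 replicate 2 and without MT-F7 replicate 1, and among the ATF4 targets 4 to 7, with 4 without MT-F7 replicate 1, and 8 without both replicate 3 libraries. With limma and no filter 13 cell-retained responders and 4 ATF4 targets passed. Of the PPAR genes 1 passed in each limma fit with a filter and 4 with the replicate block. In counts in place of per-length values, the difference between the groups was -10.7 percentage points for the share of VEGFA, 8.88 for VEGFB and 1.34 for VEGFC.

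Replicate numbers were not treated as pairs. Deviations from the group means of libraries with the same number had a correlation of 0.134, 0.0445 and 0.417 across genes, and not every library was most like its own number. Under a block for replicate number, 4674 genes passed, and 2 of the 10 genes were again called higher and 5 lower. Depth limits PGF, STC1 and VEGFC, which had 27 to 77 counts per library.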
